A study of Mus musculus with 3 samples.

Results

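The cardiac myosin locus of the mouse lies on chromosome 14 and holds 4 genes that were followed here: Myh6, Myh7, Cmtm5 and Il25, out of 21728 protein-coding genes on the autosomes and the X chromosome. They were chosen by position and because earlier results of the same libraries had placed Cmtm5 among the genes with the largest difference between sunitinib and vehicle, so their ratios in that contrast are given as a description, with no test. The study profiled nuclei of snap-frozen wild-type mouse hearts by single-nucleus multiome, in which the transposase Tn5 cuts open chromatin and every fragment carries the barcode of its nucleus. Chromatin fragments were analysed here, so every level below is a count of accessible DNA fragments and not of RNA. There were 3 groups with 1 library each: sunitinib plus Yoda1, sunitinib, and vehicle. Sunitinib is a receptor tyrosine kinase inhibitor used against cancer, and Yoda1 is a small molecule that opens the stretch-activated channel PIEZO1. All 3 library names carry 3 months, without saying whether this is an age or a time of treatment, and the labels give no dose, sex or number of hearts per library. With 1 library per group no difference can be tested between animals, and every interval below is a 95% interval that covers counting error only.

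Myh6 encodes the alpha and Myh7 the beta cardiac myosin heavy chain, the motor proteins of the thick filament. In the adult mouse ventricle alpha myosin predominates, the beta chain marks the fetal heart, slow muscle and the stressed heart, and thyroid hormone favours Myh6 over Myh7. Each gene carries a microRNA in an intron, Mir208a in Myh6 and Mir208b in Myh7, and Mhrt is a noncoding RNA read antisense to Myh7 from the stretch between both myosin genes. Cmtm5 encodes a four-pass membrane protein of the chemokine-like factor MARVEL family, known best from brain and from its loss in tumours. Il25, also called Il17e, encodes a cytokine of type 2 immunity known from epithelial tuft cells.

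In the mm10 build with GENCODE annotation the members span 61.9 kb. Il25 (ENSMUSG00000040770.5) lies at chr14:54932695-54935837 on the plus strand, and Cmtm5 (ENSMUSG00000040759.9) follows on the same strand at chr14:54936261-54939274, 423 bp further. Myh6 (ENSMUSG00000040752.16) at chr14:54941921-54966927 and Myh7 (ENSMUSG00000053093.16) at chr14:54970684-54994626 are both on the minus strand, so the end of Myh6 faces the end of Cmtm5 at a distance of 2646 bp and the start of Myh6 lies 3756 bp from the end of Myh7. A member's value was the number of fragments that overlapped the gene body or the 2 kb upstream of it. The upstream stretch of Cmtm5 covers the end of Il25, so that 1577 bp belong to both genes, and the upstream stretch of Myh6 covers the start of Mhrt. Levels are given as CPM, the fragments over a region per 1000000 fragments of the same nuclei or library, and per kb of region where genes are compared.

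The sunitinib library held 3851 called nuclei and the vehicle library 2679, with medians of 2372 and 2165 fragments per nucleus. The sunitinib plus Yoda1 library held 12 called nuclei, and 42.1% of its fragments shared their position with another fragment, against 6.82% in sunitinib and 5.66% in vehicle. That library was therefore compared whole and not by cell class. Nuclei were called on all autosomes and X and then clustered without any fragment of chromosome 14, so that the locus had no part in the clustering. The cardiomyocyte-like class, with all 10 cardiomyocyte markers at least 2-fold above the other nuclei, held 540 sunitinib nuclei with 1946490 fragments and 373 vehicle nuclei with 1045888 fragments. Its start-site enrichment, a measure of signal over background, had a median of 17.4 in sunitinib and 19.2 in vehicle, below the median of every other class. Barcodes of 22 called nuclei occurred in both libraries.

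The promoters of the genes that the results turn on are given from RefSeq (GRCm38.p6), from 250 bases before to 50 after an annotated start, read on the strand of the gene. Capitals mark the M-CAT motif of TEAD factors (GGAATG, or CATTCC on the other strand) and the letters of the TATA box (TATAAA), wherever they occur.
Cmtm5 (chr14:54936247-54936546, plus strand): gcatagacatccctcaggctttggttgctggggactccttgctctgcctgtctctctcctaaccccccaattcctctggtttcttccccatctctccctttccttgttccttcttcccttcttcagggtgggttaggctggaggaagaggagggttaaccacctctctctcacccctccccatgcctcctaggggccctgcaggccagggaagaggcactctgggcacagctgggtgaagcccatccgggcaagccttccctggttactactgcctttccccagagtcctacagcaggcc
Myh6 (chr14:54966558-54966857, minus strand): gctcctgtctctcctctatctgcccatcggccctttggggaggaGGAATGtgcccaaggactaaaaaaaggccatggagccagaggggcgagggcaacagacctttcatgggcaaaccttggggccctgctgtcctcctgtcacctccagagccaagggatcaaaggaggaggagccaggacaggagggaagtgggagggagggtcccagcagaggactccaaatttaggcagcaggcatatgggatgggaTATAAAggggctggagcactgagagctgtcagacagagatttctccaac
Mhrt (chr14:54968537-54968836, plus strand): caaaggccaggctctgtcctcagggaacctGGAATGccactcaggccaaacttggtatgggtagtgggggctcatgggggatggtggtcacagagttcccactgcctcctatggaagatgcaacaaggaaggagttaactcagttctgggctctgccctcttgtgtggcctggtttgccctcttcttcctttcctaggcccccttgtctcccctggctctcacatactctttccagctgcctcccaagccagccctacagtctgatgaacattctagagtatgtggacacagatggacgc
Myh7 (chr14:54994577-54994876, minus strand): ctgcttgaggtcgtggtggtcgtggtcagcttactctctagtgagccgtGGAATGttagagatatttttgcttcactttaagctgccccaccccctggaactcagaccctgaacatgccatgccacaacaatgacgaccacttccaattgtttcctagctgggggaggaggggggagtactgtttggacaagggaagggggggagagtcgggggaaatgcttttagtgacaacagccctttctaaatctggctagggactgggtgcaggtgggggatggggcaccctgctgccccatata
The promoters of Myh6, Mhrt and Myh7 each held 1 M-CAT motif, at positions -206, -220 and -201 from the RefSeq start, while that of Cmtm5 held none. Of 27025 RefSeq promoters of the same length, 14.6% held this motif. TATAAA was present in the Myh6 promoter alone, at position 2, and in 8.88% of all promoters. This position lies after the RefSeq start used and not upstream of it. The E-box letters CAGCTG occurred once in the Cmtm5 promoter, at -23, and once in the Mhrt promoter, at -17, against 16.1% of all promoters. Other cardiac motifs were searched on both strands and not found in these 4 windows. They were the GATA motif, spelled GATAAG and held by 7.43% of all promoters, the nuclear receptor site, spelled AGGTCA and held by 16.0%, the NKX2-5 motif, spelled CAAGTG and held by 13.5%, the CArG box, held by 1.57%, and the MEF2 motif, held by 3.26%. The Myh6 sequence begins from a RefSeq start, 54966607, that is not among the GENCODE starts of the gene. Il25 had no entry in the promoter table.

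These 300 bases were open in cardiomyocyte-like nuclei of both libraries to different degrees. The Cmtm5 promoter was overlapped by 4 fragments in sunitinib and 17 in vehicle, or 2.05 and 16.3 CPM, a log2 ratio of -2.86 (-5.01 to -1.37). The Myh7 promoter was overlapped by 6 fragments in sunitinib and 14 in vehicle, a log2 ratio of -2.05 (-3.79 to -0.65). The Myh6 promoter had 19 fragments in sunitinib and 16 in vehicle, and the Mhrt promoter 20 and 17. The intervals of these last ratios, -0.66 (-1.69 to 0.41) and -0.67 (-1.67 to 0.36), included 0.

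The microRNAs of the locus were read from the same source, with the seed, bases 2 to 8, in capitals.
mmu-miR-208a-3p (chr14:54949072-54949093, minus strand): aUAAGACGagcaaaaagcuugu
mmu-miR-208b-3p (chr14:54975710-54975731, minus strand): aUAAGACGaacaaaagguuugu
They share their seed and 19 of 22 bases. The 1-kb window that holds Mir208a, inside Myh6, had 30 fragments in sunitinib and 15 in vehicle cardiomyocyte-like nuclei, a log2 ratio of 0.08 (-0.84 to 1.1). The window of Mir208b held under 30 fragments and was not compared.

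All 4 members were most accessible in cardiomyocyte-like nuclei, although no fragment of their chromosome had been used in the clustering. The class was named by 10 markers, of which 9 lie outside chromosome 14. In CPM per kb of gene region, Myh6 reached 11.4 (10.5 to 12.3) in sunitinib and 15.4 (14 to 16.9) in vehicle. Cmtm5 stood at 8.81 (7.05 to 10.9) in sunitinib and at 24.4 (20.4 to 29.0) in vehicle. It lay above Myh6 in vehicle, while in sunitinib the intervals of both genes overlapped. Il25 reached 4.0 (2.86 to 5.44) in sunitinib and 12.1 (9.33 to 15.4) in vehicle, and Myh7 3.88 (3.36 to 4.46) and 6.71 (5.77 to 7.76). In sunitinib the levels of Il25 and Myh7 did not differ beyond their intervals, while in vehicle Il25 lay above Myh7. For scale, a median protein-coding gene had 0.66 CPM per kb in this class in either library, and among 21728 genes Myh6 ranked 6 in sunitinib and 4 in vehicle, Cmtm5 20 and 3, Il25 536 and 12, and Myh7 573 and 170.

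In the other 8 classes every member had a lower value, though Cmtm5 and Il25 rested on few fragments in the smaller classes. In epicardial or mesothelial-like nuclei of sunitinib neither had a fragment, which at a floor of 3 counts allows up to 6.30 and 6.15 CPM per kb. Myh6 ranged from 0.48 to 1.02 CPM per kb in sunitinib and from 0.21 to 1.15 in vehicle, with overlapping intervals in most classes. Of these 8 classes, fibroblast-like nuclei alone had a Myh6 ratio whose interval excluded 0, with 18 fragments in sunitinib and 38 in vehicle and a log2 ratio of -1.24 (-2.16 to -0.41). Myh7 reached at most 0.86 in sunitinib and 0.86 in vehicle, in myeloid-like and B lymphoid-like nuclei. Cmtm5 came next to cardiomyocyte-like nuclei in myeloid-like nuclei, at 3.12 in sunitinib and 1.92 in vehicle, on 7 and 5 fragments. Vascular endothelial-like nuclei held 26 fragments over Cmtm5 in sunitinib and 18 in vehicle, or 1.27 and 1.2 CPM per kb. Il25 had no fragment in endocardial-like nuclei of either library, which at a floor of 3 counts allows up to 1.46 CPM per kb in sunitinib and 0.78 in vehicle. Against all other called nuclei together, Myh6 was 17-fold higher in cardiomyocyte-like nuclei of the sunitinib library, with log2 ratio 4.08 (3.85 to 4.33), and 22.1-fold higher in the vehicle library, with 4.47 (4.19 to 4.76). Cmtm5 was 9.27-fold higher in the sunitinib library, with log2 ratio 3.21 (2.71 to 3.74), and 23.4-fold higher in the vehicle library, with 4.55 (4.03 to 5.13). For Il25 these ratios were 3.34 (2.57 to 4.18) in sunitinib and 5.16 (4.31 to 6.23) in vehicle, and for Myh7 3.47 (3.12 to 3.84) and 4.15 (3.75 to 4.57).

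**Figure D1:**
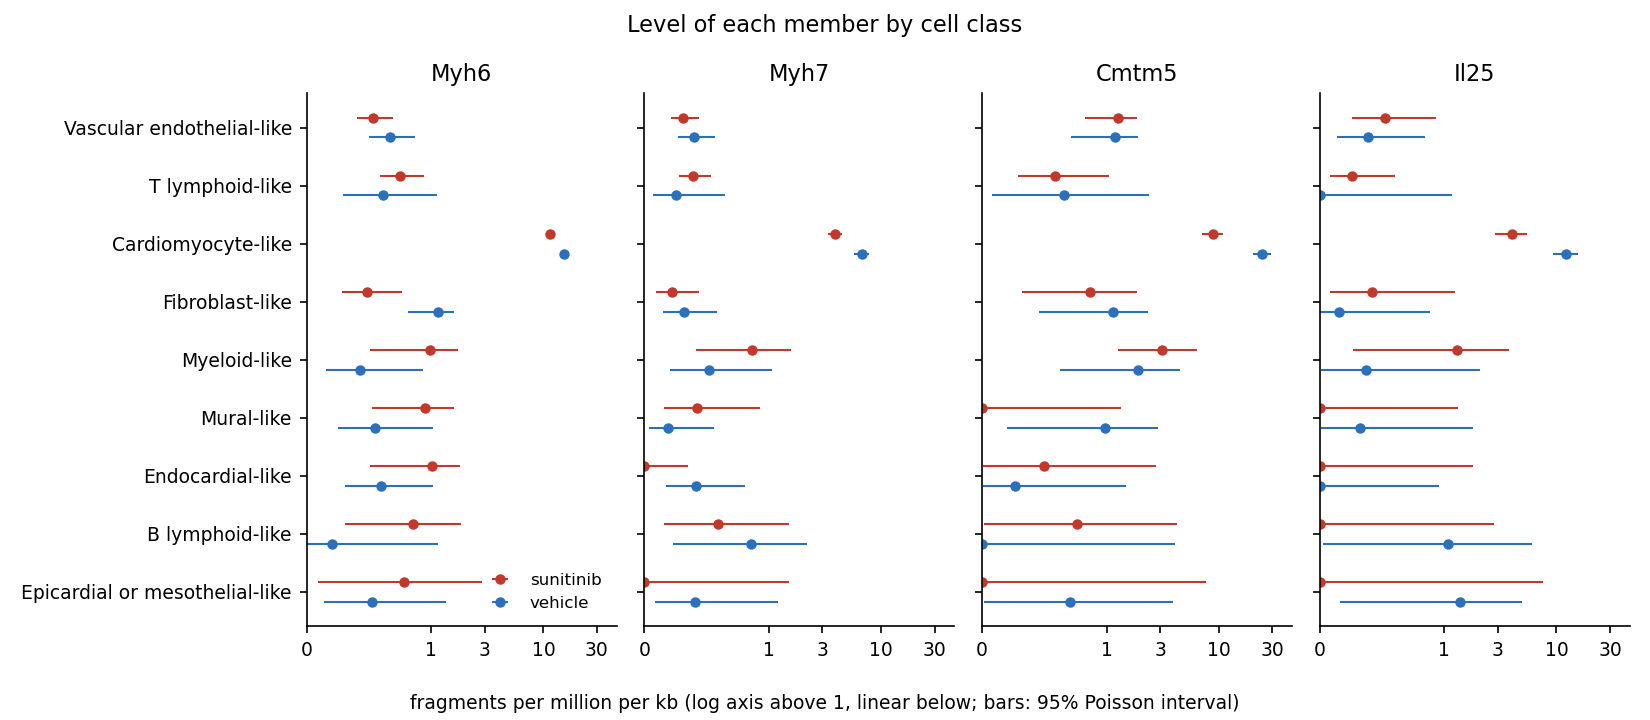
CPM per kb of gene region (horizontal axis, logarithmic above 1 and linear below) for each member in the 9 cell classes (vertical axis), in the sunitinib library (red, above) and the vehicle library (blue, below), with 95% Poisson intervals. The cardiomyocyte-like points stand apart to the right in all 4 panels, and in the Cmtm5 panel the sunitinib point at 8.81 lies left of the vehicle point at 24.4.

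Over the whole cardiomyocyte-like class the locus had a lower CPM in sunitinib than in vehicle. The difference was largest at Il25 and Cmtm5, smaller at Myh7 and smallest at Myh6. The ratio of Myh6 was near that of the summed cardiomyocyte markers outside chromosome 14, -0.45. At a finer clustering resolution of 1.5 the interval of Myh6 included 0, at -0.14 (-0.32 to 0.05), and those of Myh7, Cmtm5 and Il25 lay below 0. The values that follow are those of the whole class. Cmtm5 had 86 fragments in sunitinib and 128 in vehicle, or 44.2 (35.3 to 54.6) and 122 (102 to 146) CPM, a log2 ratio of -1.47 (-1.88 to -1.06). It was the lowest ratio of the 2347 protein-coding genes with at least 200 fragments in this class. Il25 had 40 fragments in sunitinib and 65 in vehicle, or 20.5 (14.7 to 28.0) and 62.1 (48 to 79.2) CPM, a log2 ratio of -1.59 (-2.20 to -1.01). Il25 missed the minimum of 200 fragments. Among the 11578 genes with at least 50 fragments it was at rank 2 from the lowest and Cmtm5 at rank 3.

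Il25 and Cmtm5 share part of their counts. Over both gene regions there were 109 fragments in sunitinib and 151 in vehicle, of which 17 in sunitinib and 42 in vehicle belonged to both genes. These shared fragments, over the 3′ part of Il25 that lies upstream of Cmtm5, had the log2 ratio -2.18 (-3.11 to -1.36). Fragments over Cmtm5 alone numbered 69 in sunitinib and 86 in vehicle, with -1.21 (-1.69 to -0.74), and those over Il25 alone 23 in each library, with -0.90 (-1.80 to 0.00). The intervals of these 3 ratios overlapped.

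Myh7 had 196 fragments in sunitinib and 182 in vehicle, or 101 (87.1 to 116) and 174 (150 to 201) CPM, a log2 ratio of -0.79 (-1.09 to -0.49), rank 14 from the lowest of 2347. Mhrt had 101 fragments in sunitinib and 84 in vehicle, with -0.63 (-1.06 to -0.20). Myh6 had 598 fragments in sunitinib and 435 in vehicle, or 307 (283 to 333) and 416 (378 to 457) CPM, with -0.44 (-0.62 to -0.26), rank 193. Of the 3 members that met the 200-fragment minimum, Cmtm5 and Myh7 were lower by at least 1.5-fold and Myh6 was not, while 2.9% of all 2347 genes were lower and 1.66% higher by that much. At the minimum of 50 fragments 3 of 4 members were lower by at least 1.5-fold, against 5.92% of genes, and none was higher, against 4.65%. The rule that chose the members used this contrast, so nothing is read from these shares.

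The general cardiomyocyte signal of the class moved in the same direction. The summed fragments of the 9 cardiomyocyte markers outside chromosome 14 stood at 2683 CPM in sunitinib and 3671 in vehicle, a log2 ratio of -0.45 (-0.51 to -0.39), and all 10 markers had a ratio below 0, with Ttn, the giant sarcomere spring protein, lowest at -0.63. None of these markers was at 0 in either library. In the same nuclei the summed markers of B cells had a ratio of 0.41 (0.21 to 0.63), those of T cells 0.26 (0.04 to 0.48), those of epicardial cells 0.41 (0.05 to 0.80) and those of myeloid cells -0.24 (-0.41 to -0.08). The part of these marker shifts in the members' ratios was not tested. Taken relative to the 9 cardiomyocyte markers, Myh6 had a log2 ratio of 0.01 (-0.17 to 0.20), Myh7 -0.34 (-0.64 to -0.04), Cmtm5 -1.02 (-1.43 to -0.61) and Il25 -1.14 (-1.75 to -0.55). Relative to the markers the interval of Myh6 thus included 0, and those of Myh7, Cmtm5 and Il25 lay below 0.

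A group of nuclei of low start-site enrichment held like shares of the class's nuclei but unequal shares of its fragments. At a finer clustering resolution, 131 sunitinib nuclei and 91 vehicle nuclei, 24.3% and 24.4% of the class, fell into an unnamed cluster. Their median enrichments were 7.19 and 7.13, and they carried 45.7% of the class's fragments in sunitinib and 27.2% in vehicle. In that cluster as a whole, of 242 nuclei, 0 cardiomyocyte markers were 2-fold above all nuclei outside it. Their median log2 ratio there was -0.09. The class values above include these nuclei. In the largest cardiomyocyte-like cluster that remained, with 384 sunitinib and 275 vehicle nuclei, the ratio of Myh6 was -0.03 (-0.22 to 0.16), that of Myh7 -0.41 (-0.73 to -0.10), that of Cmtm5 -1.09 (-1.52 to -0.67) and that of Il25 -1.29 (-1.95 to -0.68). Without the 5% of nuclei with most fragments Cmtm5 stood at -0.98 (-1.43 to -0.55), Il25 at -1.14 (-1.81 to -0.49), Myh7 at -0.43 (-0.76 to -0.09) and Myh6 at -0.07 (-0.27 to 0.13). Without the nuclei whose barcode occurred in both libraries the ratios were -1.38 for Cmtm5, -1.49 for Il25, -0.69 for Myh7 and -0.37 for Myh6. The order of the members was the same in each of these subsets, and Cmtm5 had an interval below 0 in 19 of 20 other settings.

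**Figure D2:**
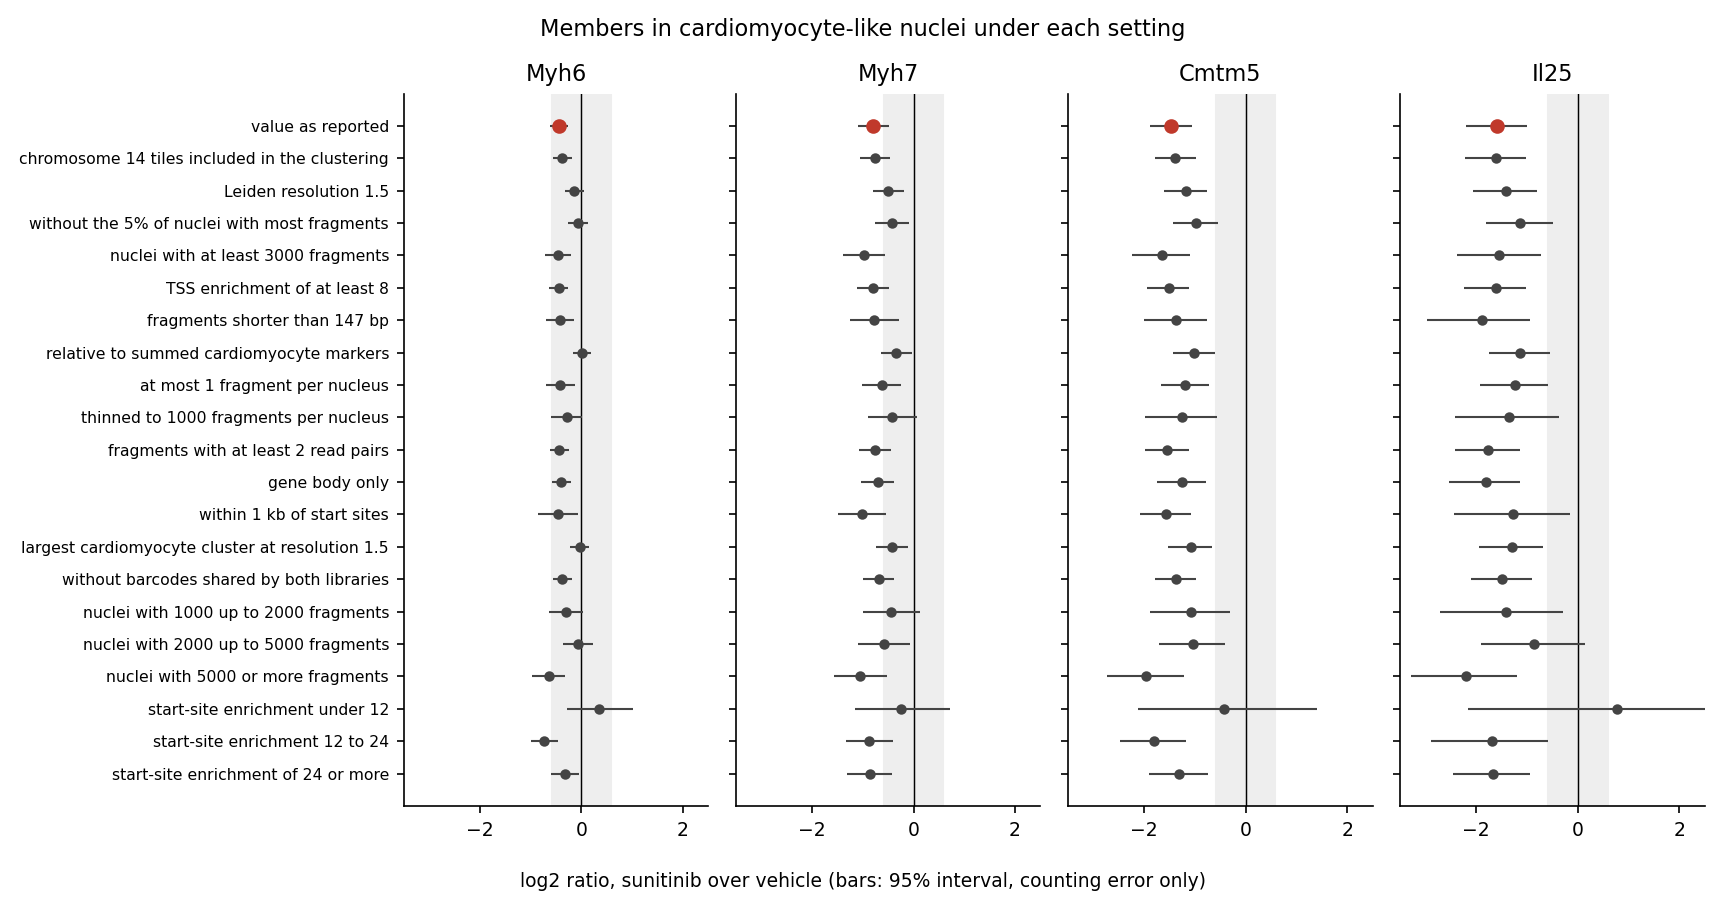
Log2 ratio of sunitinib over vehicle (horizontal axis) for each member in cardiomyocyte-like nuclei, as reported (red) and under 20 other settings (grey, vertical axis), with 95% intervals for counting error, cut at the edge of the axis. The grey band spans less than 1.5-fold. Cmtm5 and Il25 lie left of the band in 19 of 20 settings each, Myh6 crosses 0 in several, and the wide intervals at a start-site enrichment under 12 rest on 8 or fewer fragments over Cmtm5 or Il25.

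Along the locus, chr14:54907001-55020000, 30 of 113 windows of 1 kb held at least 30 fragments in cardiomyocyte-like nuclei. Of these 30, 15 were lower in sunitinib by at least 1.5-fold and 0 were higher, against 18.4% lower and 6.77% higher among 6588 such windows of the genome. The median log2 ratio was -0.56 in the locus and -0.16 in the genome, and in 9 locus windows the interval lay below 0. Counted relative to the cardiomyocyte markers, 7 windows were lower and 4 higher, and in the largest cardiomyocyte-like cluster 6 were lower and 3 higher. The share over the genome was not computed under either of these settings, so these counts have no background beside them. In the locus 27 of the 30 windows were at least 8-fold above the other nuclei, whereas the window at the start of Ngdn, a gene of ribosome assembly, was below them with a log2 ratio of -0.50.

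The lowest windows lay at starts and ends of genes. The window at chr14:54936001-54937000, with the start of Cmtm5, had 9 fragments in sunitinib and 24 in vehicle, with -2.26 (-3.6 to -1.16). Its neighbour at chr14:54935001-54936000, with the end of Il25, had 11 and 27, with -2.15 (-3.35 to -1.13), and the window at chr14:54994001-54995000, with the start of Myh7, had 16 and 24, with -1.47 (-2.49 to -0.51). The highest ratios were 0.54 (-0.50 to 1.80) in an intron of Myh6 at chr14:54955001-54956000, on 28 fragments in sunitinib and 10 in vehicle, 0.34 (-0.41 to 1.17) at the start of Ngdn at chr14:55015001-55016000, on 50 and 21, and 0.23 (-0.73 to 1.33) over exons of Myh6 at chr14:54960001-54961000, on 29 and 13. All of these higher ratios had intervals that included 0.

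Ranked by the fragments of both libraries together, the leading windows lay at and past the end of Cmtm5. In sunitinib alone the window at the start of Ngdn was higher, at 25.7 CPM, against 20.1 CPM in vehicle. The window at chr14:54939001-54940000, with the last bases of Cmtm5, had the most fragments in sum, 47 in sunitinib and 36 in vehicle, or 24.1 and 34.4 CPM, with a ratio of -0.52 (-1.17 to 0.16). Next came chr14:54940001-54941000, with 42 fragments in sunitinib and 34 in vehicle and -0.60 (-1.28 to 0.11), which is annotated with the start of Gm49130. The start of Mhrt had 32 and 34 fragments, with -0.98 (-1.73 to -0.24), and the annotated start of Myh6 27 and 23, with -0.67 (-1.52 to 0.20). The other windows among the 10 with most fragments, ties included, were that at the start of Ngdn, 1 over exons of Cmtm5 with -1.05 (-1.85 to -0.25), and 5 at the end of or inside Myh6 with log2 ratios from -1.2 to -0.51. Of the windows outside any gene, only those at chr14:55003001-55005000, from 8.38 to 10.4 kb upstream of the Myh7 start, reached 30 fragments. They had 22 fragments each in sunitinib and 11 and 14 in vehicle, with ratios of 0.07 and -0.26 whose intervals included 0.

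**Figure D3:**
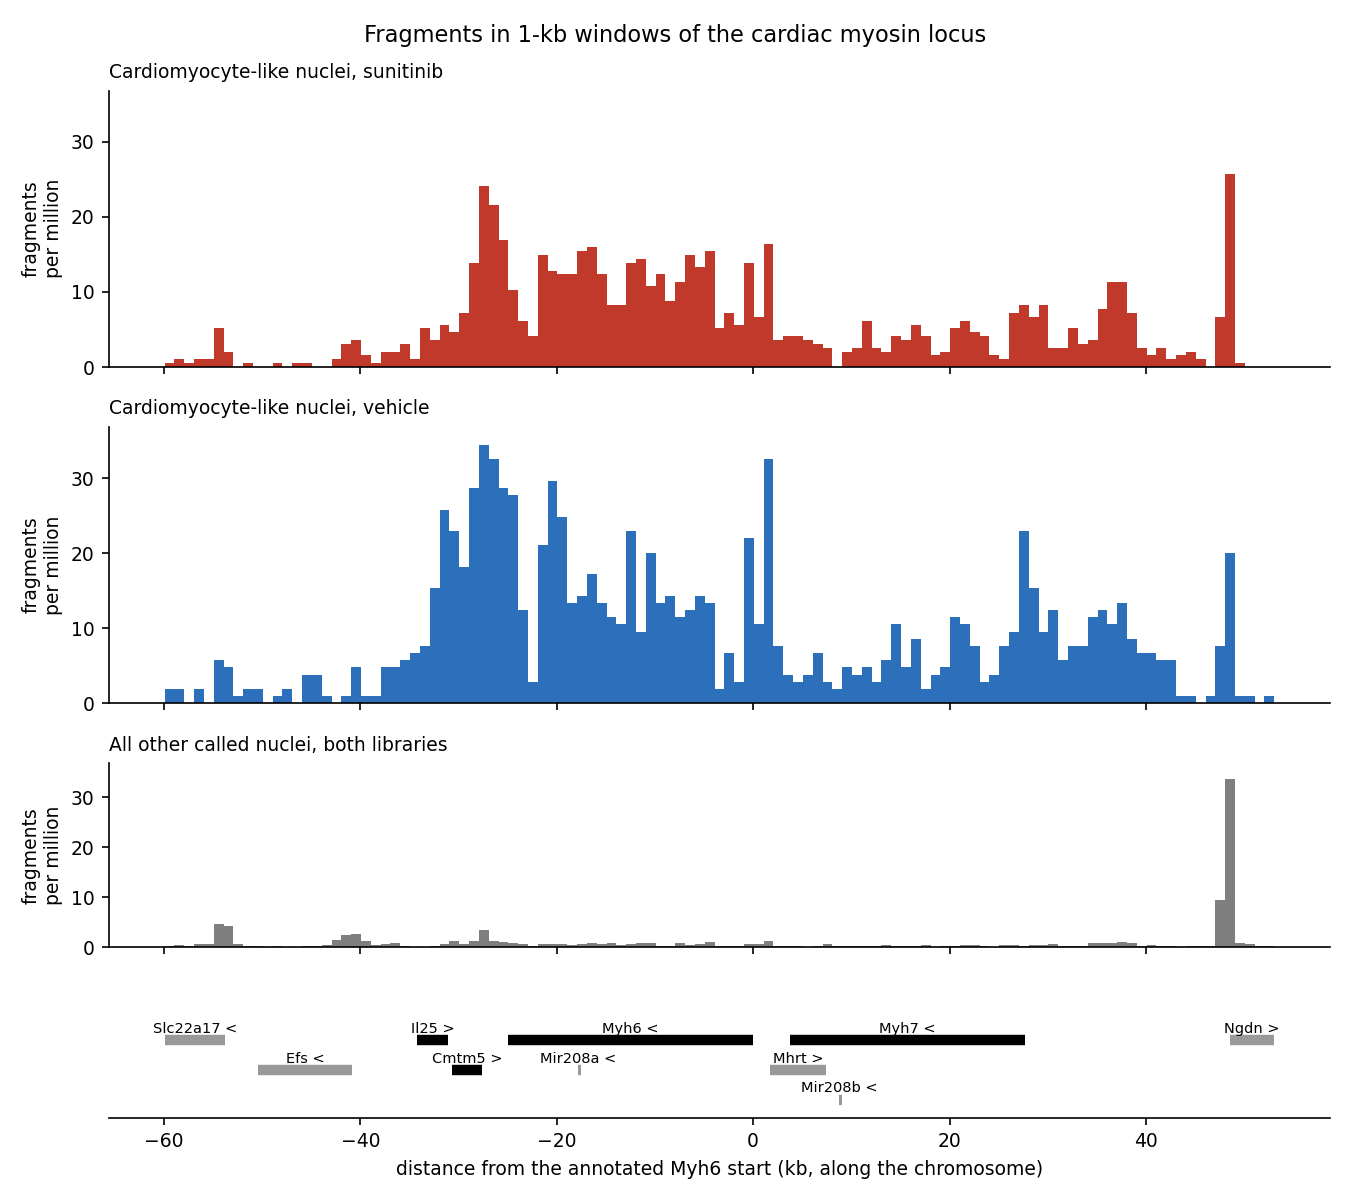
CPM in 1-kb windows (vertical axis, same scale in each panel) by distance in kb from the annotated Myh6 start (horizontal axis), for cardiomyocyte-like nuclei of the sunitinib library (red), those of the vehicle library (blue) and all other called nuclei of both libraries (grey), above the genes of the locus (members in black, arrows give the strand). The tallest peak of the locus outside Ngdn, just past the end of Cmtm5, reaches 24.1 in sunitinib and 34.4 in vehicle, and the shoulder over the start of Cmtm5, at 22.9 in vehicle, is at 4.62 in sunitinib.

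In windows of 5 kb, which hold more fragments each, the ratio differed along the locus, though the intervals of neighbouring windows overlapped. It was computed for the class as reported alone, where the summed cardiomyocyte markers stood at -0.45. From the Il25 side towards the start of Myh6 it was -1.42 (-2.17 to -0.71), -1.23 (-1.61 to -0.85), -0.82 (-1.21 to -0.43), -0.61 (-0.98 to -0.23), -0.37 (-0.79 to 0.07), -0.26 (-0.70 to 0.19) and 0.19 (-0.29 to 0.71). The window with the Myh6 start stood at -0.71 (-1.16 to -0.25). Over the 5′ part of Myh7 and the first 5 kb upstream of it the ratios were -0.97, -1.08 and -1.01, each with an interval below 0. Further upstream of Myh7, outside any gene, the next windows had 72 fragments in sunitinib and 58 in vehicle, with -0.59 (-1.1 to -0.06), and 29 and 35, with -1.16 (-1.93 to -0.42). Over Efs, beyond Il25, the windows at chr14:54915001-54925000 also had intervals below 0, on 2 and 4 fragments in sunitinib and 7 and 9 in vehicle. In all other called nuclei none of the 23 windows had an interval that excluded 0. The whole locus had 1260 fragments in sunitinib and 1066 in vehicle in cardiomyocyte-like nuclei, with -0.66 (-0.77 to -0.54), and 1255 and 865 in the other nuclei, with -0.08 (-0.20 to 0.05).

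**Figure D4:**
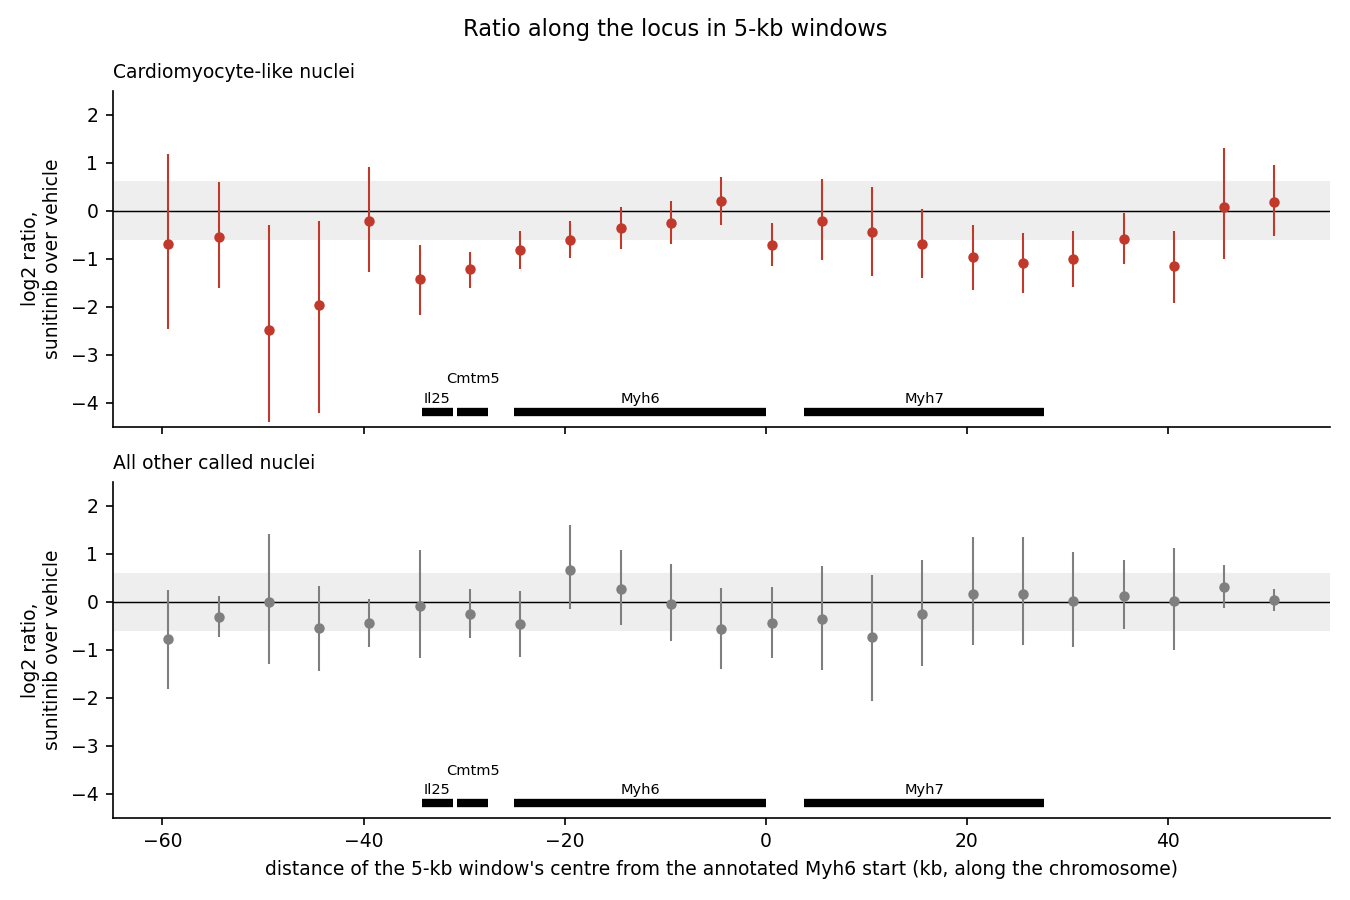
Log2 ratio of sunitinib over vehicle (vertical axis) in 5-kb windows by distance in kb from the annotated Myh6 start (horizontal axis), in cardiomyocyte-like nuclei (red, top) and all other called nuclei (grey, bottom), with 95% intervals for counting error, cut at the edge of the axis, a grey band of less than 1.5-fold and black bars for the members. The red points climb from -1.42 over Il25 to 0.19 inside Myh6 and are near -1 again around the Myh7 start.

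Shares within the locus do not depend on how the libraries were scaled. They count fragments by midpoint within the gene body, without the 2 kb upstream, so their counts are smaller than the members' values above. Cmtm5 thus had 57 fragments in sunitinib and 79 in vehicle, and Il25 28 and 53. Of the locus fragments in cardiomyocyte-like nuclei, Myh6 held 43.2% (40.4 to 46.0) in sunitinib and 36.1% (33.2 to 39.1) in vehicle. Cmtm5 held 4.52% (3.44 to 5.82) in sunitinib and 7.41% (5.91 to 9.15) in vehicle, and Il25 2.22% (1.48 to 3.20) and 4.97% (3.75 to 6.45). The share of Myh7 was 13.3% in sunitinib and 13.4% in vehicle, and that of the gap between Cmtm5 and Myh6 8.65% and 7.88%. In the other nuclei Cmtm5 held 3.03% in sunitinib and 3.01% in vehicle, and Myh6 14.1% and 13.1%.

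For each fragment over Myh6 there were 0.14 over Cmtm5 in sunitinib and 0.29 in vehicle cardiomyocyte-like nuclei, a log2 ratio of -1.03 (-1.48 to -0.59). In the other nuclei this quotient was 0.26 in sunitinib and 0.28 in vehicle, with -0.08 (-0.79 to 0.66). The quotient of Myh7 to Myh6, the pair whose balance marks the fetal and the stressed heart, was 0.33 in sunitinib and 0.42 in vehicle, with -0.35 (-0.70 to 0.00). It was not higher in sunitinib, and its interval reached to just below 0. The quotient of Cmtm5 to Myh7 was 0.44 in sunitinib and 0.70 in vehicle, with -0.68 (-1.19 to -0.17).

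Fewer sunitinib nuclei carried a fragment over Cmtm5. It was hit in 13.0% (10.2 to 16.1) of 540 sunitinib cardiomyocyte-like nuclei and 23.1% (18.9 to 27.7) of 373 vehicle ones, and after each nucleus was thinned to 1000 fragments in 5.19% (3.47 to 7.41) and 12.3% (9.17 to 16.1). Il25 was hit in 6.67% (4.71 to 9.11) of sunitinib and 12.3% (9.17 to 16.1) of vehicle nuclei, and thinned in 2.22% (1.15 to 3.85) and 6.17% (3.95 to 9.11). The shares for Myh6, 46.1% in sunitinib and 47.7% in vehicle, and for Myh7, 24.1% and 29.0%, had overlapping intervals. In T lymphoid-like nuclei, a class that should lack these cardiac genes, Cmtm5 was hit in 0.76% of sunitinib and 0.75% of vehicle nuclei and Myh6 in 4.35% and 3.02%. The median depth was 1950.5 fragments in sunitinib and 1825 in vehicle cardiomyocyte-like nuclei, and 2088 and 1623 in T lymphoid-like nuclei. Il25 was hit in 5 of 1449 sunitinib T lymphoid-like nuclei and 0 of 265 vehicle ones, and the interval of the latter reached 1.38%. Of the fragments over Cmtm5, 46.5% (35.7 to 57.6) in sunitinib and 43.0% (34.3 to 52.0) in vehicle were shorter than the length a nucleosome wraps, and over Myh6 44.0% and 42.8%.

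The genes around the members that could be compared had ratios nearer to 0 than Cmtm5. Of 11 other protein-coding genes within 100 kb, 6 had at least 50 fragments, and none of these was lower or higher by 1.5-fold. Their median was -0.20, against -0.06 over all 11578 genes. Ngdn, on the Myh7 side, had 66 fragments in sunitinib and 36 in vehicle, with -0.03 (-0.63 to 0.61), and Zfhx2, a homeobox gene beyond it, 58 and 42, with -0.44 (-1.03 to 0.18), the lowest of the 6. The others of the 6 were Pabpn1 with -0.29 (-0.90 to 0.34), Ppp1r3e with -0.24 (-1.04 to 0.61), Gm20521 with -0.15 (-0.65 to 0.37) and Homez with -0.06 (-0.85 to 0.80). On the Il25 side the adaptor gene Efs had 21 fragments in sunitinib and 20 in vehicle, with -0.83 (-1.78 to 0.13), and Slc22a17, a transporter gene, 23 and 19, with -0.63 (-1.56 to 0.34). Further out on that side, Bcl2l2, an anti-apoptotic gene, had 31 fragments in sunitinib and 14 in vehicle, with 0.22 (-0.70 to 1.28). Rnf212b, also on that side, had 20 and 16, with -0.58 (-1.6 to 0.47). Gm17428, which lies inside Myh7, had 6 and 8, with -1.28 (-3.12 to 0.41), the lowest ratio of the 11. The last 5 genes named were under the minimum of 50.

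Related genes elsewhere in the genome were described by the same ratio. For scale, the 10 cardiomyocyte markers in the same nuclei had a median of -0.43, with 2 lower by 1.5-fold and 0 higher. Of 18 myosin partners and other myosin heavy chains 16 had 50 fragments, 3 were lower by 1.5-fold and 0 higher, against 5.92% lower and 4.65% higher over all 11578 genes, with a median of -0.28 against -0.06. The lower ones were the kinase gene Mylk4 with 128 fragments in sunitinib and 127 in vehicle and a ratio of -0.88 (-1.25 to -0.52), the nonmuscle myosin gene Myh14 with -0.86 (-1.32 to -0.39) and the atrial light chain gene Myl4 with -0.82 (-1.29 to -0.35). The ventricular light chain gene Myl3 was at the other end, with 117 and 52 fragments and 0.27 (-0.21 to 0.77). Of the 8 other CMTM and chemokine-like factor genes 5 could be compared, none passed 1.5-fold, and they ran from Cmtm4 at -0.36 (-0.82 to 0.10) to Cmtm7 at 0.55 (-0.17 to 1.36). Of the 7 other IL-17 family genes 2 could be compared, the cytokine gene Il17d with 0.11 (-0.47 to 0.74) and the receptor gene Il17ra with 0.24 (-0.49 to 1.06). The cytokine gene Il17b, under that minimum with 18 fragments in sunitinib and 31 in vehicle, had -1.66 (-2.6 to -0.8) and is singled out after its values were seen. Of 21 regulators known to bind or control the locus, all with 50 fragments, 3 cardiac transcription factor genes were lower by 1.5-fold, Tbx20 with -0.75 (-1.13 to -0.36), Tbx5 with -0.66 (-1.05 to -0.27) and Gata4 with -0.60 (-0.87 to -0.33), and 0 were higher, against the same 5.92% and 4.65% of all genes. The median of the regulators was -0.18, against -0.06. The highest of the regulators, the phosphatase-controlled factor gene Nfatc3, had 117 fragments in sunitinib and 54 in vehicle, with 0.21 (-0.26 to 0.71).

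Over 18 points, 9 cell classes in 2 libraries, the genes most alike to each member were compared among 5019 autosomal genes with at least 1000 fragments. For Myh6 they included Ttn, with r = 0.96, the calcium channel gene Ryr3 with 0.89, the calcium pump gene Atp2a2 with 0.88, and the muscle gene Trdn with 0.87. For Myh7 they included Actn2, with r = 0.81, and the calcium channel gene Ryr2 and Atp2a2, each with 0.79. For Cmtm5 they included Pde4dip with r = 0.77 and Macrod2 with 0.76. For Il25 they included Pde4dip with r = 0.89, Cpeb3 with 0.84 and Shld1 with 0.77. Cmtm5 and Il25, which share fragments, had r = 0.82 with each other. The points of 1 library share its depth, and 2 of the 18 are cardiomyocyte-like nuclei that stand far from the rest, so these values describe likeness across classes. In cardiomyocyte-like nuclei Pde4dip had a log2 ratio of sunitinib over vehicle of -0.51 and Macrod2 one of 0.26, against -1.47 for Cmtm5.

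Taken over whole libraries, with no call of nuclei or classes, Cmtm5 had 247 fragments in sunitinib and 312 in vehicle, or 10.5 and 16.7 CPM, a log2 ratio of -0.68 (-0.92 to -0.43). Il25 had 117 and 158, or 4.95 and 8.46 CPM, with -0.77 (-1.13 to -0.42). Myh7 was at 27.8 CPM in sunitinib and 32.5 in vehicle, with -0.23 (-0.39 to -0.07), and Myh6 at 62.4 and 68.2, with -0.13 (-0.24 to -0.02). Cmtm5 and Il25 were lower by at least 1.5-fold, against 0.622% of 16726 genes, and no member was higher, against 2.07%. The members were chosen with this contrast known, and Cmtm5 and Il25 share counts, so nothing is read from these shares. The summed cardiomyocyte markers stood at 776 CPM in sunitinib and 815 in vehicle, with -0.07 (-0.10 to -0.04). In whole libraries a smaller share of cardiomyocyte nuclei and less accessibility per nucleus cannot be told apart. T lymphoid-like nuclei made up 1449 of the called nuclei in sunitinib and 265 in vehicle. In called nuclei outside the lymphoid classes Cmtm5 had 126 fragments in sunitinib and 163 in vehicle, with -0.63 (-0.98 to -0.29), beside 0.07 for the markers. Barcodes of fewer than 500 fragments lay below the nucleus threshold, and there Cmtm5 had 87 and 118, with -0.45 (-0.86 to -0.04), Il25 48 and 66, with -0.46 (-1.03 to 0.09), Myh6 512 and 568, with -0.16 (-0.33 to 0.02), and Myh7 309 and 298, with 0.04 (-0.19 to 0.28).

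The sunitinib plus Yoda1 library allowed a coarse look at the locus. It held 175 locus fragments, of which 42.3% shared their position with another, and 87 that were backed by at least 100 read pairs were used. Myh6 had 23 such fragments, or 89.1 (56.5 to 134) CPM, against 62.4 in sunitinib, a log2 ratio of 0.54 (-0.15 to 1.1). Myh7 had 18, or 69.8 (41.3 to 110), against 27.8 in sunitinib, with 1.37 (0.57 to 2.0). Cmtm5 had 5, or 19.4 (6.29 to 45.2) against 10.5 in sunitinib, with 1.02 (-0.75 to 2.13), and Il25 2, or 7.75 (0.94 to 28.0) against 4.95. The summed cardiomyocyte markers were at 1682 CPM in sunitinib plus Yoda1 and 776 in sunitinib, with 1.12 (0.98 to 1.25), so that Myh7 was 0.25 (-0.55 to 0.88) and Myh6 -0.57 (-1.26 to -0.01) relative to them. Only Myh6 and Myh7 had at least 5 expected fragments, and of these Myh7 was higher by 1.5-fold, against 9.6% of 11711 genes, and neither was lower, against 21.9%.

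Against vehicle, which had 68.2 CPM over Myh6 and 32.5 over Myh7, the sunitinib plus Yoda1 library had ratios of 0.42 (-0.28 to 0.98) for Myh6, 1.14 (0.34 to 1.77) for Myh7, 0.35 (-1.42 to 1.45) for Cmtm5 and 0.19 (-3.18 to 1.75) for Il25, beside 1.05 (0.9 to 1.18) for the markers. Here too 1 of 2 members, Myh7, was higher by 1.5-fold, against 12.2% of 11175 genes, and neither was lower, against 16.3%. Both comparisons share the sunitinib plus Yoda1 library. By midpoints within the gene body, Myh6 held 21.8% (13.7 to 32.0) of the 87 locus fragments of that library, against 27.6% in sunitinib and 26.3% in vehicle. Myh7 held 19.5% (11.8 to 29.4), against 12.3% in sunitinib and 12.3% in vehicle. A difference at Cmtm5 or Il25 was not detectable at this depth.

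**Figure D5:**
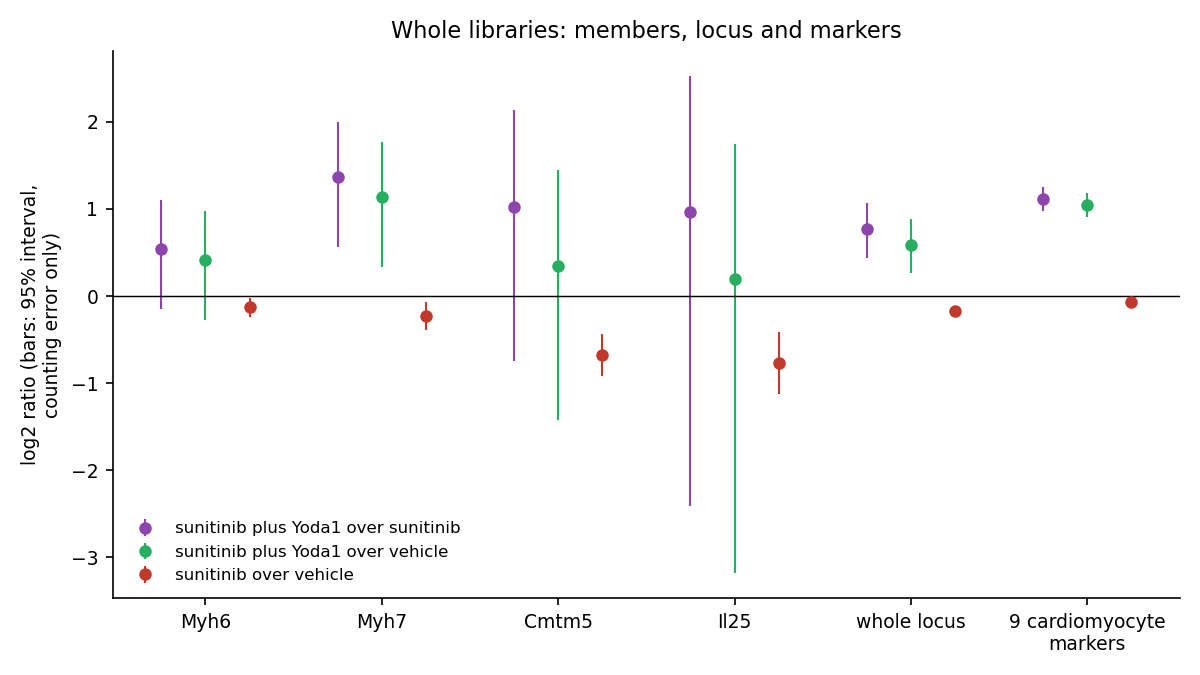
Log2 ratios in whole libraries (vertical axis) with 95% intervals for counting error, for the members, the whole locus and 9 cardiomyocyte markers (horizontal axis), as sunitinib plus Yoda1 over sunitinib (purple), sunitinib plus Yoda1 over vehicle (green) and sunitinib over vehicle (red). The red points of Cmtm5 at -0.68 and Il25 at -0.77 lie below that of the markers at -0.07, and the purple and green intervals of both genes span 0.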

How the data were processed

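Single-nucleus multiome libraries were made from snap-frozen mouse hearts, and the chromatin fragment files were analysed here. Each deposited file lists fragments with a barcode and a count of read pairs, made with cellranger-arc 2.0.0 (sunitinib, vehicle) or 2.0.2 (sunitinib plus Yoda1) on the mm10 reference, per the file headers. Cell Ranger and Signac are named in the submitters' processing notes. The differing versions cannot be told apart from the group.

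Nuclei were barcodes with at least 1000 fragments on autosomes and X, a start-site enrichment of at least 4 and a nucleosome ratio under 4. They were clustered on 60000 tiles of 5 kb, without chromosomes 14 and X, by latent semantic indexing with 30 components, of which the first was dropped, and 20 neighbours at Leiden resolution 0.8. A cluster was named where at least 3 markers were 2-fold above the other nuclei. No doublet caller was run. Windows and locus shares counted fragment midpoints, and the locus reached 25 kb beyond the members. Ratios used 0.5 added fragments, with conditional exact 95% intervals. Levels had exact Poisson intervals and shares exact Clopper-Pearson intervals. A gene or window was called at 1.5-fold, and floors used 3 counts. For whole-library comparisons of sunitinib plus Yoda1, fragments with at least 100 read pairs were used (258020 of 581823), since the rest often shared positions. Tools were Python 3.11.15, numpy 2.4.6, scipy 1.17.1, pandas 2.3.3, scikit-learn 1.9.0, leidenalg 0.10.2, igraph 0.11.9 and matplotlib 3.10.9.

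Libraries held 581823 fragments on autosomes and X in sunitinib plus Yoda1, 23621828 in sunitinib and 18678009 in vehicle, and called nuclei held 4.07%, 54.6% and 43.9% of them. The members and gene lists were chosen with earlier results of these data known. Named were the members, genes within 100 kb, the 5 genes most alike to each member and, from each list, those past 1.5-fold and the extremes. Some of the genes most alike to a member are not reported here. The windows of 5 kb, the largest cluster at resolution 1.5, the strata by depth and start-site enrichment, and the removal of shared barcodes were added after seeing the data.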

Additional observations from a re-analysis of the deposited data

How the results depend on the processing

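No paired analysis was possible because each group is 1 library, and for the same reason no replicate could be left out. The log2 ratio of Cmtm5 in cardiomyocyte-like nuclei ran from -1.96 to -0.43 over 20 alternatives and was below 0 in all 20. That of Myh7 ran from -1.05 to -0.25, that of Il25 from -2.19 to 0.77 and that of Myh6 from -0.73 to 0.34. Causes of the shifts below were not tested. Depth limits Il25, the 1-kb windows and every value of sunitinib plus Yoda1.

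For Myh6 (-0.44 as reported) the ratio was -0.14 at Leiden resolution 1.5, -0.071 without the 5% deepest nuclei, -0.033 in the largest cluster, -0.064 in nuclei of 2000 to 5000 fragments, -0.64 above 5000, and -0.73 at a start-site enrichment of 12 to 24. It changed sign relative to the markers (0.015) and at an enrichment under 12 (0.34). For Myh7 (-0.79) it was -0.43 without the deepest nuclei, -0.34 relative to markers, -0.42 thinned, -0.41 in the largest cluster, -0.43 at 1000 to 2000 fragments and -0.25 at an enrichment under 12. For Cmtm5 (-1.47) it was -0.98 without the deepest nuclei, -1.02 relative to markers, -1.04 at 2000 to 5000 fragments, -1.96 above 5000 and -0.43 at an enrichment under 12, on 8 and 6 fragments. For Il25 (-1.59) it was -0.86 at 2000 to 5000 fragments and changed sign at an enrichment under 12 (0.77, on 4 fragments in sunitinib and 1 in vehicle).

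The 15 lower windows of 30 compared became 66 of 111 with no minimum, 3 of 5 at a minimum of 60 and 6 of 29 at resolution 1.5. They became 5 without the deepest nuclei, 5 at 3000 fragments or more, 4 with short fragments, 7 relative to markers, 0 thinned and 6 in the largest cluster. The number of windows compared differed between settings, and the share over the genome was computed for the reported setting alone. The 0 higher windows became 10 of 111 with no minimum, 1 of 32 with chromosome 14 in the clustering and 4 of 29 at resolution 1.5. They became 2 without the deepest nuclei, 4 relative to markers, 3 in the largest cluster and 1 without shared barcodes.

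With at most 1 fragment per nucleus, locus shares in sunitinib were 29.9% for Myh6, 15.5% for Myh7, 6.55% for Cmtm5 and 3.28% for Il25, and in vehicle 26.9% for Myh6 and 10.1% for Cmtm5. Short fragments gave Myh7 11.2% in sunitinib and 11.2% in vehicle, and nuclei of 3000 fragments or more gave Myh6 33.1% in vehicle.

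At resolution 1.5 the levels in CPM per kb in sunitinib were 18.5 for Myh6, 6.16 for Myh7, 14.3 for Cmtm5 and 6.01 for Il25, and in vehicle 20.3, 8.69, 32.4 and 16.2. Within 1 kb of starts Myh6 was 10.2 in sunitinib, Myh7 5.55 in sunitinib and 11.2 in vehicle, and Il25 8.12 in vehicle. Over gene bodies Cmtm5 was 11.1 in sunitinib and Il25 16.1 in vehicle.

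Shares of nuclei with a fragment were, at resolution 1.5, 52.9% for Myh6 in sunitinib and 59.2% in vehicle, and in vehicle 35.5% for Myh7 and 28.7% for Cmtm5. In nuclei of 3000 fragments or more they were 64.3%, 38.9%, 22.9% and 14% for Myh6, Myh7, Cmtm5 and Il25 in sunitinib and 65.6%, 45.6%, 35.6% and 18.9% in vehicle. Thinned, they were 25.6%, 12.8%, 5.19% and 2.22% in sunitinib and 30.6%, 16.1%, 12.3% and 6.17% in vehicle.

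In whole libraries, sunitinib over vehicle, Myh6 (-0.13) changed sign outside the lymphoid classes (0.091), Myh7 (-0.23) was -0.020 with short fragments and changed sign in barcodes of fewer than 500 fragments (0.044), and Il25 (-0.77) was -0.40 within 1 kb of starts. For sunitinib plus Yoda1 over sunitinib, relative to the markers, Myh6 (0.54) was -0.57 and Myh7 (1.37) was 0.25.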
